A study of Mus musculus with 2 samples.

Results

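Transcripts of 9 genes that encode interferon regulatory factors (IRFs) and signal transducers and activators of transcription (STATs) were followed through single cells of mouse tissue around the cribriform plate. The genes were Irf1, Irf2, Irf3, Irf5, Irf7, Irf9, Stat2, Stat3 and Stat6, taken by name from the 31053 genes of the count matrix, and they were read in every cell that had 200 or more genes detected and no more than 20% of its counts from mitochondrial genes. These limits kept 1922 cells whose barcodes end in 2 and 3406 cells whose barcodes end in 1, of 6272 barcodes in all. A barcode suffix marks the library a cell came from, and the 2 sets are called library 2 and library 1.

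The study set pooled cells of 5 mice with experimental autoimmune encephalomyelitis (EAE), a model of multiple sclerosis in which the immune system attacks myelin, against pooled cells of 5 healthy mice. Every animal was a wild-type C57BL/6J female of 10 weeks, and each condition was 1 sample. Cells were sorted to be positive for podoplanin and CD31 and negative for the leukocyte protein CD45 and for Ghost dye, which stains dead cells, a gate meant for lymphatic endothelium. Nothing in the labels or files says which barcode suffix belongs to EAE and which to health, so the values are those of libraries and not of conditions, and with 1 library on each side no test between them was possible.

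IRFs and STATs carry the signal of interferons and other cytokines to DNA. IRF3, IRF5 and IRF7 are activated downstream of nucleic acid sensors and switch on interferon genes. Secreted type I interferon then acts through a complex built on STAT2 and IRF9, which binds the interferon-stimulated response element (ISRE), and Irf7 is itself a known target of that complex. STAT factors bound to the gamma-activated site (GAS) raise IRF1, an activator of antigen presentation genes, and IRF2 competes with IRF1 for the same DNA. STAT3 serves the interleukin-6 and interleukin-10 families, and STAT6 serves interleukin-4 and interleukin-13. In microglia, the resident macrophages of the brain, the interferon arm of this network is known to be engaged in infection, in ageing and in autoimmune inflammation.

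Promoter windows of 4 members are shown because Irf7 and Stat2 differed most between the libraries, Irf1 varied most among clusters of library 1, and Irf2 carries both searched motifs although its level was nearly equal. The sequences are RefSeq's for GRCm38.p6 and run from 250 bases before to 50 bases after each annotated start, 5′ to 3′ on the gene's own strand. All 9 members matched the RefSeq table. Capitals mark letters that match an ISRE core (GAAA, any 2 bases, then GAAA again, on either strand) or a GAS (TTCNNNGAA, which reads the same on both strands). The window of Irf7 is chr7:141266375-141266674 (minus strand), and that of Stat2 is chr10:128270248-128270547 (plus strand). The window shown for Irf1 is chr11:53769764-53770063 (plus strand), and that of Irf2 is chr8:46739495-46739794 (plus strand). Irf1 has another window, chr11:53770223-53770522 (plus strand), which is not shown and held no ISRE core and no GAS.
Irf7: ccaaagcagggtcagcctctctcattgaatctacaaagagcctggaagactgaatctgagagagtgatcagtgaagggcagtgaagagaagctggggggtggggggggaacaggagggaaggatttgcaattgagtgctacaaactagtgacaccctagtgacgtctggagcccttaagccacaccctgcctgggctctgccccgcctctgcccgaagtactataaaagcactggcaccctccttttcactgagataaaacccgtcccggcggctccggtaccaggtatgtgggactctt
Stat2: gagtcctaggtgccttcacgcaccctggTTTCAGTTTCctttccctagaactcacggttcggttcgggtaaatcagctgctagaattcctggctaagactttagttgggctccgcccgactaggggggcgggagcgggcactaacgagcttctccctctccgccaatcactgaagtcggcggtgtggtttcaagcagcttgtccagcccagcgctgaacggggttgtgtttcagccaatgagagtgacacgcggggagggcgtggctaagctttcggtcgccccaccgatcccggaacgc
Irf1: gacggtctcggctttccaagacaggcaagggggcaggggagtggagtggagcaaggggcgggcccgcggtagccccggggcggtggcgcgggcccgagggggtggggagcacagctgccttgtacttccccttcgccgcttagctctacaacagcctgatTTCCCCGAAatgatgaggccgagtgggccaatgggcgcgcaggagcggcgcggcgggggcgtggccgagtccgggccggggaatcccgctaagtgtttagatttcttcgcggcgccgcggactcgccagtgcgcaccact
Irf2: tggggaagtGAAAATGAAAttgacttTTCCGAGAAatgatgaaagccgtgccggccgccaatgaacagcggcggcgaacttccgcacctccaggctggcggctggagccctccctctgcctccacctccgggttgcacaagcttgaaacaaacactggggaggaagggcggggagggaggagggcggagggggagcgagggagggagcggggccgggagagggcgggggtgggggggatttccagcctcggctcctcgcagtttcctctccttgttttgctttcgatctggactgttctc
The ISRE core of Stat2 lay on the reverse strand at bases -222 to -213 from the start, and that of Irf2 at bases -241 to -232. The GAS of Irf1 lay at bases -90 to -82, and the GAS of Irf2 at bases -224 to -216. The matches of Irf2 did not overlap. The Irf7 window held neither motif, but its letters TATAAA lie at bases -29 to -24. The windows of Irf3, Irf5, Irf9, Stat3 and Stat6 held no ISRE core and no GAS. Of 32851 promoter windows of this length in the table, 3.44% held an ISRE core, 8.30% a GAS and 13.6% a TATAAA on either strand. Counted by gene over any of its windows, 13 of 20 type I interferon targets with a window held an ISRE core. Among interferon gamma targets 9 of 17 did, beside 3.99% of all 27025 genes. A GAS was held by 4 of 20 type I interferon targets and 6 of 17 interferon gamma targets, beside 9.55% of all genes. A match describes letters in this window and is not evidence of a bound site.

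The cells did not match the sorted label. Ptprc, which encodes CD45, had counts in 81.1% of cells of library 2 and 81.9% of library 1. Pdpn, which encodes podoplanin, had counts in 4 cells of library 2 and 12 of library 1, and Pecam1, which encodes CD31, in 5.31% of cells of library 2 and 12.2% of library 1. The microglial receptor gene P2ry12 was detected in 85.5% of cells of library 2 and 95.1% of library 1. By their markers 1713 cells of library 2 (89.1%) and 3086 of library 1 (90.6%) fell in clusters called microglia-like. Library 2 held 21272560 unique molecular identifiers (UMIs, counted molecules) over its barcodes, with a median of 9782.5 in a kept cell, and library 1 held 26269168, with a median of 7334. Of the barcodes, 8 occurred in both libraries, 7 of them among kept cells. Levels below are UMIs summed over cells and scaled so that those cells' total is 1000000 (CPM), and each 95% interval covers counting error only, not differences between animals or sorts. Because the end of the transcript that was counted is not given, levels of different genes are not compared.

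Irf7, the factor that amplifies type I interferon production, had the largest difference among the 9. Over all kept cells it was at 176 CPM in library 2 (3575 UMIs) against 10.1 CPM in library 1 (259 UMIs), a ratio of library 2 over library 1 of 17.5 (95% interval 15.5 to 19.97). Stat2, the STAT partner of IRF9, was at 121 CPM in library 2 (2463 UMIs) against 14.9 CPM in library 1 (385 UMIs), a ratio of 8.13 (7.30 to 9.07). Neither gene's intervals overlapped between the libraries. Irf9, the DNA-binding part of that complex, differed less, at 60.7 CPM in library 2 against 35.9 CPM in library 1, a ratio of 1.69 (1.55 to 1.84). Irf1 was at 313 CPM in library 2 against 234 CPM in library 1, a ratio of 1.33 (1.29 to 1.38).

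The other 5 members were close to equal or lower in library 2. Irf2 was at 126 CPM in library 2 and 132 CPM in library 1, and Irf3, the constitutive partner of the sensor kinases, at 45.4 CPM in library 2 and 44.1 CPM in library 1. Their ratios were 0.953 (0.905 to 1.004) for Irf2 and 1.03 (0.942 to 1.12) for Irf3. Irf5, which acts downstream of Toll-like receptors, was lower in library 2, at 162 CPM against 241 CPM in library 1, a ratio of 0.670 (0.642 to 0.699). The cytokine STAT genes were also lower in library 2, by less. Stat3 stood at 96.7 CPM in library 2 against 123 CPM in library 1, a ratio of 0.785 (0.742 to 0.831), and Stat6 at 42.2 CPM in library 2 against 52.2 CPM in library 1, a ratio of 0.808 (0.740 to 0.881).

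At a 2-fold limit, 2 of the 9 members were higher in library 2 and 0 were lower. Over the 13891 genes with at least 20 UMIs, 14.2% were at least 2-fold higher in library 2 and 8.37% at least 2-fold lower, so the count of members higher was not far from that of genes at large. What set Irf7 and Stat2 apart was the size of the ratio. Only 136 of those genes (0.979%) had a higher ratio than Irf7, and 309 (2.22%) a higher ratio than Stat2. The median ratio of the members was 1.03, and the median over all the genes tested was also 1.03.

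**Figure D1:**
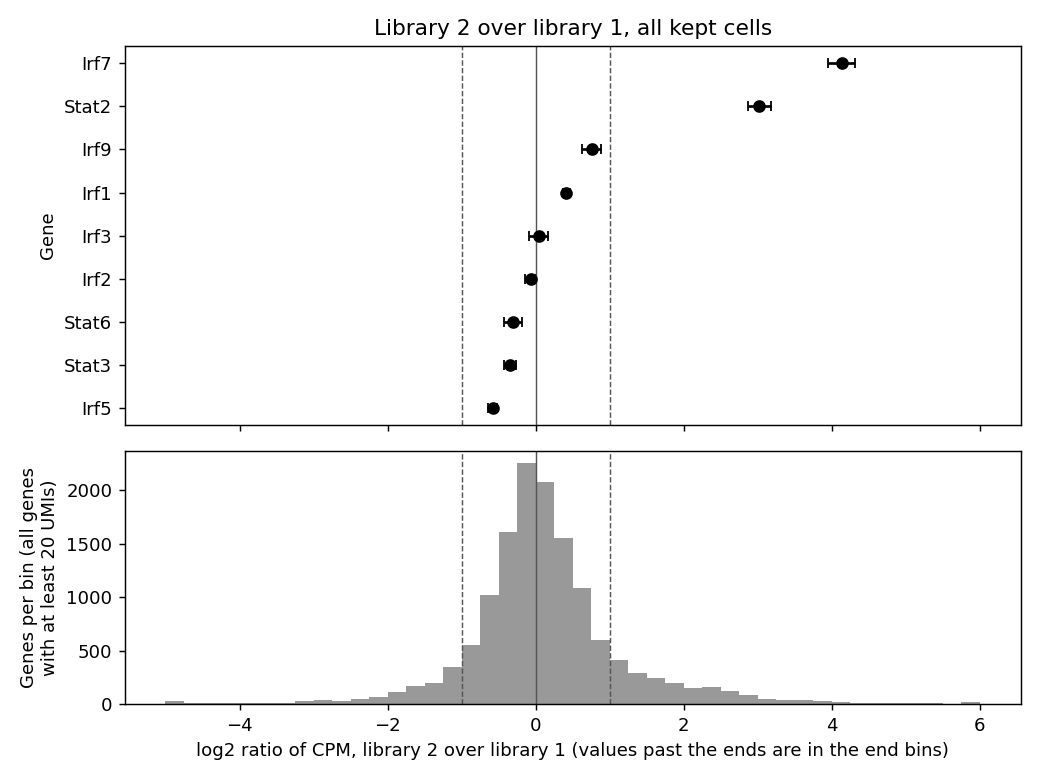
The upper panel plots the log2 ratio of CPM, library 2 over library 1, for the 9 genes in all kept cells, with 95% counting intervals as bars; the lower panel counts all 13891 genes with at least 20 UMIs on the same axis in bins of log2 ratio. Dashed lines mark 2-fold either way. Irf7 and Stat2 lie past the dashed line on the side of library 2, and the other 7 genes lie between the lines.

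The difference was present within the microglia-like cells. There Irf7 was at 182 CPM in library 2 against 9.28 CPM in library 1, a ratio of 19.6 (17.1 to 22.6), and Stat2 at 127 CPM in library 2 against 14.5 CPM in library 1, a ratio of 8.76 (7.83 to 9.84). Irf9 was at 62.1 CPM in library 2 against 35.6 CPM in library 1, a ratio of 1.75 (1.60 to 1.91). The same 2 members passed 2-fold, against 10.4% of 12351 genes higher and 8.53% lower in library 2. As a share of all UMIs of the 9 genes in these cells, Irf7 made up 15.3% in library 2 and 1.02% in library 1, Stat2 10.7% in library 2 and 1.60% in library 1, and Irf5 14.2% in library 2 and 27.4% in library 1. Irf1 held nearly the same share, 27.7% in library 2 and 26.7% in library 1.

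**Figure D2:**
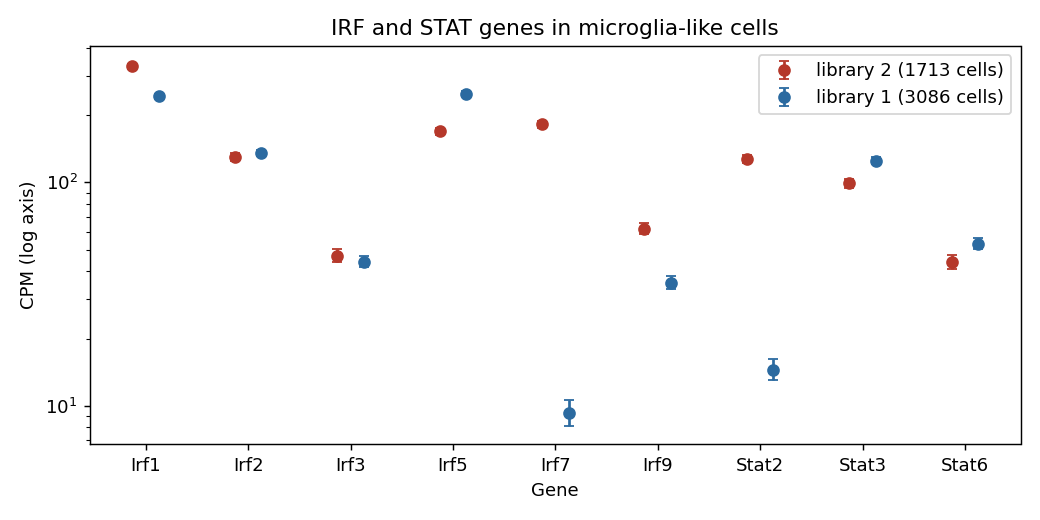
Summed CPM of each gene in microglia-like cells (log axis), library 2 in red (1713 cells) and library 1 in blue (3086 cells), with exact Poisson 95% intervals that cover counting error only. Irf7 (182 CPM in library 2, 9.28 CPM in library 1) and Stat2 (127 CPM in library 2, 14.5 CPM in library 1) show the widest gaps, whereas Irf2 and Irf3 sit at nearly the same height in both libraries.

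The libraries also differed in what else the microglia-like cells carried. Together the 10 microglia markers came to 10617 CPM in library 2 against 19805 CPM in library 1. The 8 monocyte markers came to 79.96 CPM in library 2 against 5.27 CPM in library 1, and the 10 division markers to 290 CPM in library 2 against 108 CPM in library 1. Dendritic cell markers came to 79.8 CPM in library 2 against 301 CPM in library 1, and astrocyte markers to 280 CPM in library 2 against 104 CPM in library 1. Over all kept cells the median mitochondrial share was 3.74% in library 2 against 1.54% in library 1. Immediate early and heat shock genes, a list of 23 that tissue dissociation is known to induce, came to 24867 CPM in library 2 against 64951 CPM in library 1, and 14 of the 23 were at least 2-fold lower in library 2. Markers of T or natural killer cells were near 0, at 0.375 CPM in library 2 (6 of 8 genes at 0) against 0.460 CPM in library 1 (5 of 8 genes at 0). Of the 8 neutrophil markers 4 were at 0 in each library. The part of the other differences in the ratios of Irf7, Stat2 and Irf5 was not tested.

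A small set of cells held much of the Irf7 signal of library 1. Only 38 microglia-like cells of library 1 fell in clusters made mostly of library 2 cells, and these 38 held 90 of its 222 Irf7 UMIs (40.5%), at 166 CPM. Without them Irf7 in library 1 was at 5.65 CPM and the ratio was 32.2. Stat2 depended on them less, since they held 26 of 347 UMIs, and without them its ratio was 9.26. The highest Irf7 count of any library 1 cell, 28 UMIs, came from a cell with 62960 UMIs. None of the 10 library 1 cells with most Irf7 had a barcode that occurs in both libraries. Doublets were not called, so a cell may be more than 1 cell.

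Irf7 was detected in most microglia-like cells of library 2 and in few of library 1. Without thinning, 1177 of 1713 microglia-like cells of library 2 (68.7%) had an Irf7 UMI, against 98 of 3086 in library 1 (3.18%). After each cell was thinned to 1000 UMIs, the shares were 14.8% in library 2 and 0.779% in library 1 for Irf7, and 13.1% in library 2 and 1.43% in library 1 for Stat2. Cells with an Irf7 UMI held a mean of 2.89 of them in library 2 and 2.27 in library 1, and 202 cells of library 2 against 7 of library 1 held at least 5. The median in such a cell was 2 in library 2 and 1 in library 1.

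Free RNA from broken cells can give such counts, so the shares were set beside cells of another type. Counts in those cells may mix free RNA with their own expression, so they are not a clean background. Among 37 olfactory sensory neuron-like cells of library 2, which had a median of 11227 UMIs, 3 cells had an Irf7 UMI (8.11%), and after thinning 0 of 37 did, which allows a share of up to 8.11%. Stat2 was found after thinning in 2.70% of them (1 cell, interval 0.0684% to 14.2%), which does not separate them from the 13.1% of microglia-like cells of library 2. By summed level they do separate, since Stat2 was at 16.9 CPM (7.31 to 33.4) in the neuron-like cells, below the 127 CPM of the microglia-like cells of library 2. The Irf7 share of microglia-like cells in library 2 lay above its limit of 8.11%. Library 1 held 7 neuron-like cells, too few for such a comparison, so its low shares are not read as expression or as its absence.

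Some members were near 0 in the same 37 neuron-like cells and others were not. Irf1 and Stat6 had 0 UMIs there, which allows at most 6.35 CPM. Irf5 had 4 UMIs (8.47 CPM, interval 2.31 to 21.7). Irf2 was at 67.7 CPM (46.3 to 95.6) in these neurons, nearer to the 130 CPM it reached in microglia-like cells of library 2 than Irf1 or Irf5 were to theirs, 331 CPM and 169 CPM.

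Across cell classes of library 2, Irf7 was highest in the mixed cluster (211 CPM, interval 172 to 257), then in microglia-like cells (182 CPM, 176 to 188), olfactory ensheathing-like cells (122 CPM, 94.1 to 157) and the neuron-like cells (6.35 CPM, 1.31 to 18.6). The first 2 of these levels are not told apart by their intervals. The mixed cluster carries markers of blood endothelium, fibroblasts and red blood cells, and the ensheathing-like cluster those of the glia that wrap olfactory axons. Both clusters also carried 9 of the 10 microglia markers, and the part of microglial RNA in their Irf7 levels was not tested. Across classes of library 1, Irf7 was at 31.9 CPM (16.5 to 55.7) in the mixed cluster, 21.1 CPM (10.1 to 38.8) in border-associated macrophage-like cells, 16.4 CPM (7.87 to 30.2) in epithelial or sustentacular-like cells, 9.28 CPM (8.10 to 10.6) in microglia-like cells and 4.19 CPM (0.106 to 23.3, 1 UMI) in ensheathing-like cells. Each of these overlapped its neighbour in the order, but the mixed cluster lay above the microglia-like cells. The 10 Irf7 UMIs of the epithelial or sustentacular-like cells came from 3 cells, all in cluster 4. That cluster and the border-associated macrophage-like cluster also carried 9 of the 10 microglia markers, and the part of microglial RNA there was not tested.

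Stat2 did not follow Irf7 into the mixed cluster. Irf7 there had a ratio of library 2 over library 1 of 6.63 (3.63 to 13.2), while Stat2 was at 22.8 CPM in library 2 and 26.6 CPM in library 1, a ratio of 0.858 (0.331 to 2.25) that rests on 11 UMIs in library 2 and 10 in library 1. In the ensheathing-like cells both were higher in library 2. Irf7 had 63 UMIs in library 2 and 1 in library 1 there, with an interval of the ratio of 5.06 to 1174, and Stat2 was at 121 CPM in library 2 against 25.1 CPM in library 1, a ratio of 4.80 (2.08 to 13.6).

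Clusters were formed with the 9 members and the interferon lists set aside. Only listed genes were set aside. Others among the leading genes of cluster 14, such as Cxcl10 and Ccl5, were left in, so the clusters may still reflect the interferon response. Each microglia-like cluster belonged almost wholly to 1 library, except cluster 13, which had 87 cells of library 2 and 22 of library 1. Irf7 differed among the clusters of library 2, at 255 CPM in cluster 13, which is led by the division genes Mki67 and Top2a, 235 CPM in cluster 14, led by the chemokine genes Cxcl9 and Cxcl13, 164 CPM in cluster 15, led by Apoc1, Apoe and Saa3, and 102 CPM in cluster 12, led by C4b and class II antigen presentation genes. The upper 2 were not told apart by their intervals. Among the microglia-like cells of library 2, cluster 14 made up 34.8% of cells, 39.8% of UMIs and 51.4% of Irf7 UMIs. Stat2 was more even, from 112 CPM in cluster 12 to 138 CPM in cluster 15, and Irf9 ran from 57.1 CPM in cluster 14 to 78.7 CPM in cluster 13. No cluster of library 1 with 50 or more cells came near these Irf7 levels: the range was 2.71 to 8.97 CPM, a factor of 3.31 between low levels, against 2.49 in library 2.

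Irf1 was more even over the clusters of library 2 than over those of library 1. In library 2 it lay between 240 CPM (cluster 13) and 353 CPM (cluster 14). In library 1 it ran from 127 CPM in cluster 0, led in part by the microglial gene Fcrls, to 431 CPM in cluster 2, led by Gadd45b and Il1a, a factor of 3.38. The highest Irf1 level of any microglia-like cluster therefore occurred in library 1, the library with the lower overall level. Irf5 was also highest in cluster 2, at 296 CPM, against 184 CPM in cluster 0. Irf2, Stat2, Irf9 and Stat6 had overlapping intervals at the ends of their ranges in library 1, and Irf3 and Stat6 did in library 2.

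**Figure D3:**
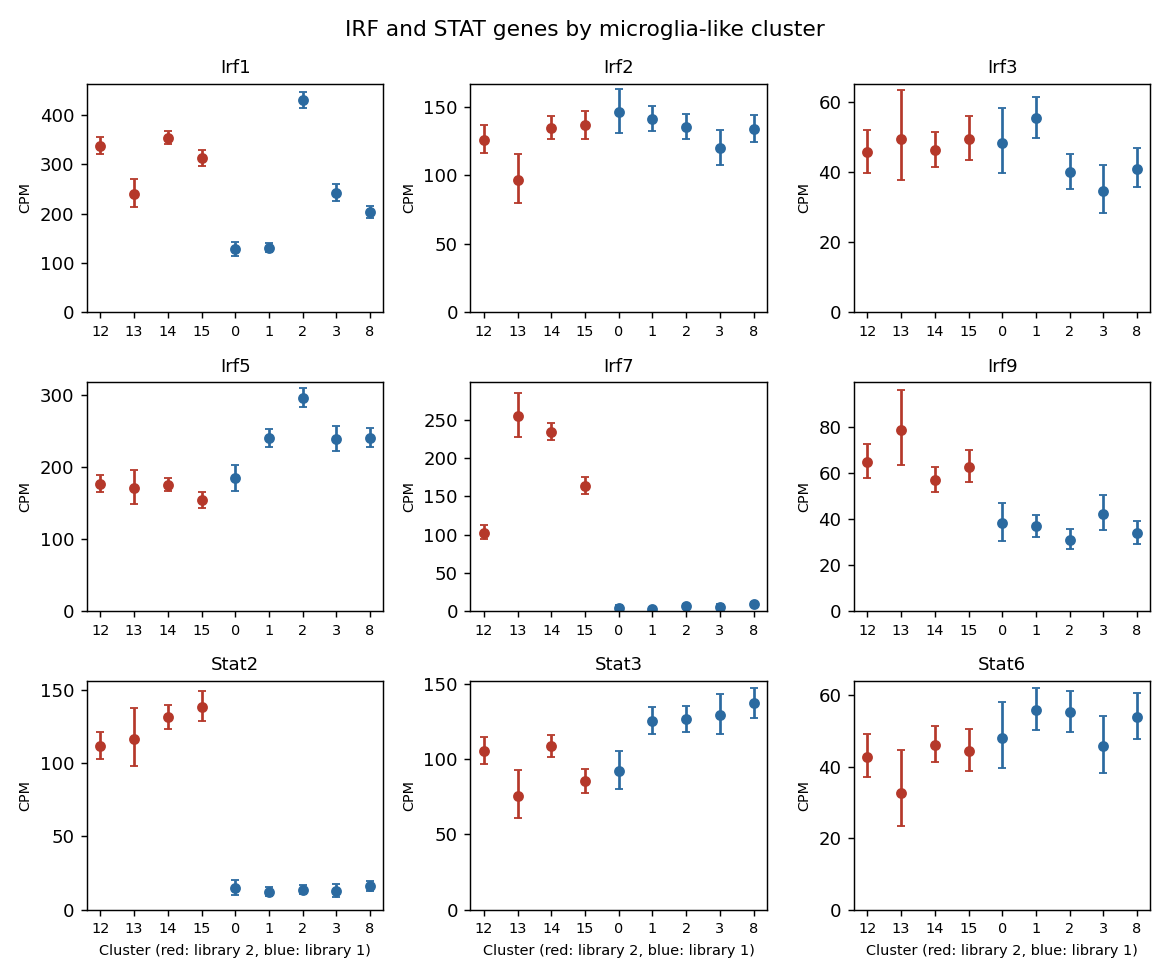
Each panel gives the CPM of 1 gene in the microglia-like clusters with at least 50 cells, library 2 in red and library 1 in blue, with exact Poisson 95% intervals. Irf7, Stat2 and Irf9 separate the libraries in every cluster shown, while Irf1 spans 127 to 431 CPM among the blue points of library 1.

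Cells were then ranked within each library by the share of their UMIs in 28 type I interferon target genes, none of them a member, and cut into deciles. Irf7 climbed with this score in both libraries. In library 2 it was at 56.0 CPM in the lowest decile, 141 CPM in the fifth, 248 CPM in the ninth and 465 CPM in the highest. In library 1 it stayed at or under 2.10 CPM through the first 8 deciles, was at 6.22 CPM in the ninth and reached 70.1 CPM in the highest, which held 188 of the 222 UMIs. The highest decile over the lower 5 deciles gave a ratio of 4.65 (4.24 to 5.11) in library 2 and 116 (55.3 to 293) in library 1, where the lower 5 deciles held 7 UMIs. Without the 38 library 1 cells named above, the library 1 ratio was 66.9. Over each library's own deciles Irf7 thus sloped in library 2 and stepped at the end in library 1. The deciles cover largely different ranges of the score. Its median share was 0.166% in the highest decile of library 1, below the 0.192% in the lowest decile of library 2. In library 1 the median was 0.0766% in the ninth decile, so most of its cells were ranked on few UMIs of the score. The part of this in the contrast of slope and step was not tested. In the lowest decile of library 1 none of the 309 cells had any UMI of the score.

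Stat2 and Irf9 followed the score in library 1 and less so in library 2. In library 2 Stat2 was at 188 CPM in the highest decile and 96.6 CPM in the lower 5, a ratio of 1.95 (1.72 to 2.20), and in library 1 at 39.9 CPM in the highest and 9.84 CPM in the lower 5, a ratio of 4.06 (3.09 to 5.33). In library 2 Irf9 was at 72.1 CPM in the highest decile and 60.2 CPM in the lower 5, a ratio of 1.20 (0.988 to 1.44), and in library 1 at 68.3 CPM in the highest and 27.9 CPM in the lower 5, a ratio of 2.45 (2.03 to 2.95). The interferon-high cells of library 1 thus reached the Irf9 level of library 2 but not its Stat2 level. Irf2, Stat3 and Stat6 had intervals that included 1 in both libraries. Irf1 had a ratio of 1.002 (0.919 to 1.09) in library 2 and 1.31 (1.21 to 1.41) in library 1. Irf3 was lower in the highest decile of library 1, with a ratio of 0.688 (0.542 to 0.864), and at 0.801 (0.623 to 1.02) in library 2. Irf5 was slightly lower in the highest decile of library 1, at 0.888 (0.812 to 0.968), and at 1.08 (0.955 to 1.21) in library 2. The difference between the libraries in these slopes was not tested.

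**Figure D4:**
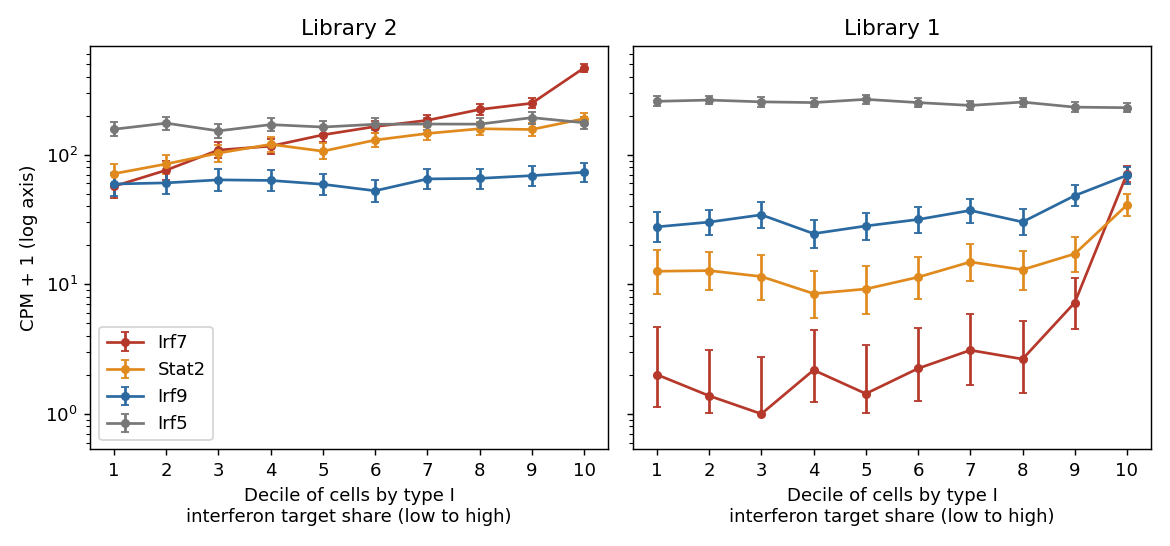
CPM plus 1 (log axis) of Irf7, Stat2, Irf9 and Irf5 in deciles of microglia-like cells ranked by their share of type I interferon target UMIs, library 2 on the left and library 1 on the right, with exact Poisson 95% intervals. Irf7 climbs through all deciles in library 2, from 56.0 to 465 CPM, and stands apart in the last decile of library 1 at 70.1 CPM, while Irf5 is nearly flat.

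Along a ranking by 24 interferon gamma targets, Irf7, Stat2, Irf1, Irf9 and, by less, Irf5 were higher in the highest decile of library 1. Irf5 had a ratio of 1.13 (1.05 to 1.23) there, and Irf3 was lower, at 0.634 (0.492 to 0.807). In library 2 the intervals of Irf5 and Irf3 included 1. In library 1 Irf1 was at 389 CPM in the highest decile and 194 CPM in the lower 5, a ratio of 2.002 (1.86 to 2.15), whereas in library 2 the ratio was 1.10 (1.01 to 1.19). Irf7 had a ratio of 1.07 (0.952 to 1.20) in library 2 and 19.2 (12.8 to 29.5) in library 1. Stat2 had a ratio of 0.867 (0.744 to 1.006) in library 2 and 2.87 (2.18 to 3.77) in library 1, and Irf9 1.03 (0.833 to 1.25) in library 2 and 1.38 (1.12 to 1.69) in library 1. Without the 38 library 1 cells in clusters of library 2, the library 1 ratio of Irf7 was 8.56. Irf1 also followed the dissociation and immediate early score, with ratios of 1.52 (1.40 to 1.65) in library 2 and 2.04 (1.90 to 2.20) in library 1, so its level moved with both lists and the part of either was not tested. Irf7 went the other way along that score in library 2, with a ratio of 0.700 (0.608 to 0.802), but the ratio was 1.005 in cells of 5000 to 10000 UMIs. In library 1 that ratio was 0.427 (0.222 to 0.752), from 13 UMIs in the highest decile, and it was 1.05 in cells of that depth and 0.9503 without the 38 cells.

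Splitting the microglia-like cells by whether they had an Irf7 UMI showed which members were found with it. In library 2 the cells with and without Irf7 differed little: Stat2 was at 132 CPM with and 114 CPM without, a ratio of 1.15 (1.05 to 1.27), and Irf9 had a ratio of 1.02 (0.894 to 1.17). Irf1, at 0.945 (0.894 to 0.9998), and Stat3, at 0.896 (0.810 to 0.992), were slightly lower in the library 2 cells with Irf7. In library 1 the 98 cells with Irf7 had Stat2 at 61.2 CPM against 12.3 CPM in the 2988 without, a ratio of 4.96 (3.73 to 6.52). Irf9 was at 70.6 CPM with and 34.0 CPM without, a ratio of 2.08 (1.62 to 2.64), and Irf1 at 372 CPM with and 237 CPM without, a ratio of 1.57 (1.41 to 1.74). Irf2, Irf3, Irf5, Stat3 and Stat6 had intervals that included 1 in library 1. Of the 98 cells, 14 were among the 38 library 1 cells in clusters of library 2, and the ratios were not computed without them. The type I target list summed to 5825 CPM with and 3713 CPM without Irf7 in library 2, and to 3772 CPM with and 458 CPM without in library 1. Depth differed too, with a median of 10549 UMIs with and 8988 without in library 2, and 8564.5 with and 7399.5 without in library 1. Irf7 was at 182 CPM in library 2 and 9.28 CPM in library 1, so cells without its UMI are not like sets in both. The difference between library 2 and library 1 in these ratios was not tested, nor was the part of depth or of those 14 cells.

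**Figure D5:**
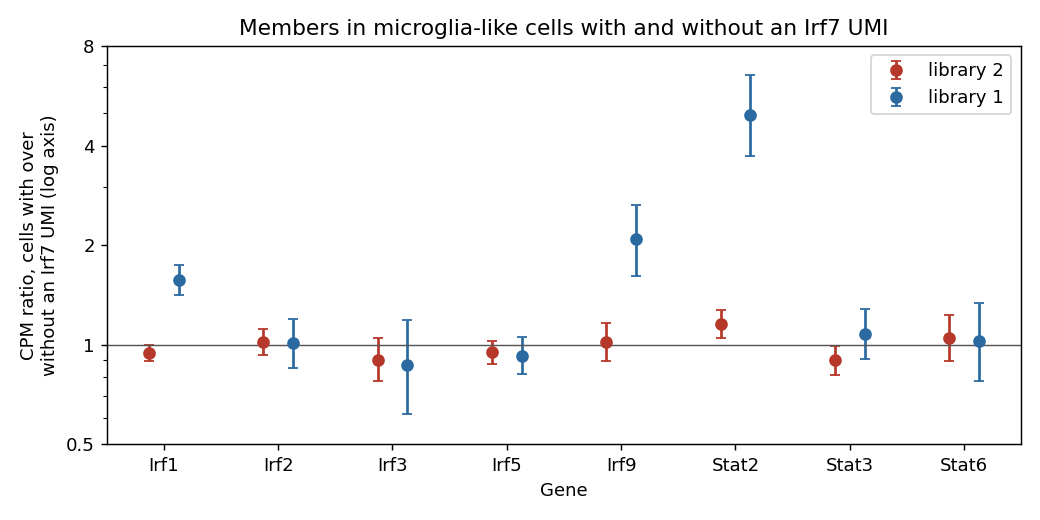
For each of the other 8 genes, the ratio of CPM in microglia-like cells with an Irf7 UMI over those without (log axis), library 2 in red and library 1 in blue, with exact 95% counting intervals. In library 1 Stat2 (4.96), Irf9 (2.08) and Irf1 (1.57) lie above 1. In library 2 only Stat2 (1.15) has an interval wholly above 1, and Irf1 (0.945) and Stat3 (0.896) have intervals wholly below 1.

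Irf1 had the largest variance over mean of the 9 genes, a measure that stays near 1 for members with few counts and so cannot show their spread. At 1000 UMIs per microglia-like cell, its variance over the mean of UMIs per cell was 1.28 in library 2 and 1.77 in library 1, with up to 5 UMIs in a cell of library 2 and 11 in a cell of library 1. At that depth 32.2% of cells of library 2 and 41.2% of library 1 had a UMI of none of the 9 genes.

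Genes known to be driven by these factors were read in the same cells. Of the 28 type I interferon targets, 28 were at least 2-fold higher in library 2, with a median ratio of 10.2, against a median of 0.994 over all 12351 genes tested. Ifitm3, an antiviral membrane protein, was at 923 CPM in library 2 against 42.6 CPM in library 1, and Bst2, which tethers budding virus, at 988 CPM against 200 CPM in library 1. Oas3, an RNA-sensing synthetase, had 531 UMIs in library 2 and 5 in library 1, and Oas2 was at 55.5 CPM in library 2 against 1.25 CPM in library 1. Of the 24 interferon gamma targets, 23 were at least 2-fold higher in library 2, with a median ratio of 13.8, and the exception, the peptide transporter gene Tap2, had a ratio of 1.99. Ciita, the master activator of class II genes, was at 40.7 CPM in library 2 against 0.669 CPM in library 1, and Cd74, the invariant chain, at 9330 CPM against 623 CPM in library 1.

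The targets of the cytokine STATs did not show this. Of 13 STAT3 targets 9 could be compared, 1 was at least 2-fold higher in library 2 and 0 lower, and the median ratio was 0.878. The one was Saa3, an acute-phase gene, at 23.7 CPM in library 2 against 0.502 CPM in library 1. The feedback inhibitor Socs3 was at 846 CPM in library 2 and 1218 CPM in library 1, and the survival gene Mcl1 at 834 CPM in library 2 and 1666 CPM in library 1. Of 13 STAT6 targets 6 could be compared, 1 higher and 2 lower at 2-fold. Over all genes tested 10.4% were higher and 8.53% lower, and with so few genes compared the counts of both lists are given as a description. Klf4, also an early response gene, was at 224 CPM in library 2 against 853 CPM in library 1, Ccl22 had 4 UMIs in library 2 and 17 in library 1, and Pdcd1lg2 had 30 UMIs in library 2 and 3 in library 1.

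Upstream of the members the differences were smaller. Of 18 sensors, adaptors and kinases, 3 were at least 2-fold higher in library 2 and 0 lower, with a median ratio of 1.34, beside 10.4% higher and 8.53% lower over all genes. These were Ikbke, a kinase that activates IRF3 and IRF7, at 20.3 CPM in library 2 against 3.39 CPM in library 1, and the RNA sensors Ifih1 at 58.5 CPM against 17.0 CPM in library 1 and Ddx58 at 49.5 CPM against 14.5 CPM in library 1. Both RNA sensors are also in the type I target list. The DNA pathway adaptor Tmem173 (STING) was at 231 CPM in library 2 and 175 CPM in library 1. Slc15a4, a transporter needed for endosomal Toll-like receptor signalling, was at 85.1 CPM in library 2 and 105 CPM in library 1.

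Of 25 receptor, Janus kinase and feedback genes, 3 were at least 2-fold higher in library 2 and 0 lower, with a median ratio of 1.13. This count is near the share over all genes (10.4% higher, 8.53% lower) and is given as a description. The 3 were feedback inhibitors. Usp18, which blocks the type I interferon receptor and is also in the type I list, was at 76.4 CPM in library 2 against 7.74 CPM in library 1, a ratio of 9.87. Socs2 had a ratio of 4.23 and Socs1, also in the interferon gamma list, 2.80. Tyk2, a kinase of the type I receptor, was just under the limit at 1.94 (1.73 to 2.18). The other Janus kinase genes had ratios of 0.545 for Jak1, 0.843 for Jak2 and 1.21 for Jak3. The interferon gamma receptor gene Ifngr1 was at 586 CPM in library 2 and 672 CPM in library 1. Within the family itself Irf8, a lineage factor of microglia that is not among the 9, was at 641 CPM in library 2 and 488 CPM in library 1, a ratio of 1.31.

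The pattern of each member over 9 microglia-like clusters, centred within each library on log2(CPM + 10), was set beside that of 9297 genes by Pearson's r, as a description with no test, over points that share libraries and depth. Irf7 ran most like Cybb, Cd72 and Fxyd5 (r of 0.97 each). Stat2 ran most like Aprt (0.91), Ifit3b and Atxn7l3 (0.90 each). Irf1 ran most like Irf2bp2 (0.99), Fem1b and Bcar1 (0.98 each), and Irf5 most like Rel, Actg1 and Samd4b (0.98 each). For Irf2 the likest gene was Grina (0.98), for Irf3 Zfp943 (0.96), for Irf9 Mri1 (0.97), for Stat3 Asgr2 (0.97) and for Stat6 3110043O21Rik (0.98). With 9 points and this many genes, high values are found for any gene.

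By GENCODE M21 positions, 8 of the 9 members overlap another gene of the count matrix, and whether the counting used strand is not given. Annotated genes outside the matrix were not searched. Irf1 overlaps Gm17334, Irf2 overlaps Gm45479 and Gm31172, Irf3 overlaps Bcl2l12, Irf5 overlaps Tnpo3, Irf7 overlaps Phrf1, Stat3 overlaps Stat5a and Stat6 overlaps Nab2, each on the other strand. Reads in these overlaps cannot be told apart from the neighbour's without strand. Irf9 overlaps Rnf31 on its own strand, where strand would not separate them either. Stat2 overlaps no other gene of the matrix.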

How the data were processed

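Whole-number UMI counts, unnormalized, were deposited as 1 matrix of genes by barcodes for both pools. Its header gives software version 3.1.0 and format version 2, and Cell Ranger, bcl2fastq and UMI-tools are named without versions, per the submitters' processing notes. Which genome build, annotation and strand setting were used is not given in the sources used here. Scanpy 1.11.5 with igraph 0.11.9 made the clusters, and SciPy 1.17.1, NumPy 2.4.6 and pandas 2.3.3 the other values, under Python 3.11.15.

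The filters removed 512 of library 2's barcodes and 432 of library 1's. No doublet caller was run. Leiden clusters (resolution 1, 30 components, 15 neighbours, 2000 variable genes) were made with 156 genes of the members and response lists set aside. A cluster took a name from at least 3 markers of 1 list among its 50 highest folds, was mixed where several lists did so, and otherwise was microglia-like with at least 6 of 10 microglia markers at 100 CPM. Names rest on transcripts alone.

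CPM intervals are exact Poisson and ratio intervals exact conditional (Clopper-Pearson), both at 95%. Shares used cells of at least 1000 UMIs, which left out 15 cells of library 2 and 87 of library 1. UMI counts of single cells are not replicates, so intervals and the limit of 3 counts for a count of 0 cover counting error only. Ratios used genes with at least 20 UMIs and no pseudocount. The ratio calculation was tested on simulated data. EAE and healthy mice were not compared because the libraries could not be mapped.

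The members, lists and rules were chosen with earlier results of these data known. Named genes were every member, in each list up to 4 genes by summed CPM and up to 4 by the size of the log2 ratio, the 3 likest genes per member and 6 genes that check the label. Tap2 was named as the only exception in its list, and Jak1, Jak2 and Jak3 to stand beside Tyk2. Irf8 and the genes that lead clusters were named to describe them. All of these were named after their values were seen.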

Additional observations from a re-analysis of the deposited data

Results flagged for a closer look

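The barcodes that failed the filters were used in no comparison other than the alternative with no cell filter, given below. The 512 left-out barcodes of library 2, with a median of 51.3% mitochondrial UMIs, held Irf7 at 46.4 CPM (46 UMIs) and Stat2 at 18.2 CPM (18 UMIs), above the 3.03 CPM that a count of 0 allows, which is why they are listed. The 432 left-out barcodes of library 1 held 3 UMIs of each gene, 5.96 CPM, which is the limit there.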

How the results depend on the processing

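The count of 2 members at least 2-fold higher and 0 lower in library 2 held under all 11 alternatives tried. These included no cell filter, which brought back the left-out barcodes, and microglia-like cells only. The count also held in microglia-like cells at clustering resolutions 0.5 and 2. It held there too without the cluster led by division genes, and without the 38 library 1 cells in clusters of library 2. Over the 11 alternatives the Irf7 ratio ran from 9.29 (pseudocount of 10 CPM) to 22.7 (without the 1% of cells with most UMIs). The Stat2 ratio ran from 5.27 with the pseudocount to 9.54 in thinned cells. In microglia-like cells without those 38 cells the ratio of Irf7 was 32.2, against 19.6 with them. Irf2 (0.861 to 1.04) and Irf3 (0.987 to 1.20) crossed 1. Genes at least 2-fold higher in library 2 numbered 1077 at a minimum of 100 UMIs and 4092 at 1 UMI, against 1979 at 20 UMIs, and genes lower 716 and 3165, against 1162. Along the scores, 41 of 54 ratios moved by less than their counting interval in cells of 5000 to 10000 UMIs, and Irf7 along the dissociation score in library 1 turned to 1.05 (the cause was not tested). There the type I ratio of Irf7 in library 1 was 76.5 and that of Stat2 was 3.02. The alternatives of leaving out clusters or cells and of restricting depth were chosen after seeing the data. No paired analysis was possible because each condition is 1 sample and the libraries carry no condition. With 1 library a side, differences between animals or sorts cannot be told apart from those between libraries, and Irf7 in library 1 rests on 222 UMIs in microglia-like cells.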
